A study of Mus musculus with 8 samples.

Results

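Foxk1 is a forkhead transcription factor, and its binding was mapped by chromatin immunoprecipitation and sequencing in mouse embryonic fibroblasts (MEFs). The peaks described here are those that came in isolated close pairs: 961 pairs, or 1922 peaks, of the 28363 listed on chromosomes 1 to 19 (6.78%) and of 28933 in the whole list. Members were chosen by summit position alone. A summit, the point of highest enrichment that the authors gave for a peak, had to lie less than 1000 bp from a neighbouring summit, with no further summit within 10 kb of either. Because the positions and the strengths come from the same contrast of Foxk1 against input, every value below is a description and none is a test of the pairs.

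The series held 8 libraries from MEFs grown in DMEM without treatment: 3 precipitated with an antibody to Foxk1, 3 with IgG, an antibody of no chosen target, and 2 of input, the sonicated chromatin before precipitation. The sources used here do not give the strain or genotype of the embryos, or say whether the libraries came from separate cultures. The list has 1 row per peak and no value per library, so no measurement carries a replicate error, read depth is unknown, and IgG was not analysed here. Whether the cells carry fibroblast markers cannot be read from a peak list.

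Forkhead proteins bind DNA through a winged-helix domain that recognises a short core sequence, and Foxk1 also has a forkhead-associated domain that binds phosphorylated proteins. Foxk1 is known as a repressor of autophagy genes that works with the Sin3 co-repressor, and as a regulator of glycolysis genes in the mTORC1 nutrient pathway. Regulatory elements often hold several binding sites close together. Sonicated fragments reach beyond the bound site, so that peaks within a fragment length of each other can draw on the same fragments. An mm9 genome sequence and gene annotation were not used here, so the pairs are named by their mm9 coordinates, 1-based, and not by gene.

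The first question was how far apart the summits of a pair lay. The median distance was 552 bp, the 25th and 75th percentiles were 418 and 737 bp, and the range ran from 195 to 999 bp. Each listed peak was 460 bp wide, so that a pair with less than 460 bp between its summits overlapped. By this measure 318 pairs overlapped (33.1%, exact 95% binomial interval 30.1 to 36.2, for counting error only) and 643 stood in tandem (66.9%), side by side without overlap. Both kinds named in the grouping, overlapping and tandem, were therefore present, with tandem pairs in the majority at the limit of 1000 bp. The balance depends on that limit: with summits under 500 bp apart, 81.96% of pairs overlapped.

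Distances were bunched around the width of a peak. By 100 bp steps, 189 pairs had 400 to 499 bp between summits, the fullest step, followed by 167 with 500 to 599 bp and 158 with 300 to 399 bp. Towards shorter distances the numbers fell to 38 pairs at 200 to 299 bp and 3 pairs under 200 bp. Towards longer ones they fell more slowly, from 119 pairs at 600 to 699 bp and 121 pairs at 700 to 799 bp to 91 in the next step and 75 in the last, at 900 to 999 bp. Overlapping peaks shared a median of 80 bp and at most 265 bp, or 57.6% of a peak. Tandem peaks left a median of 208 bp between their edges and at most 539 bp. From the outer edge of one peak to that of the other, a pair spanned a median of 1012 bp, and the peaks of all pairs covered 855 kb.

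**Figure D1:**
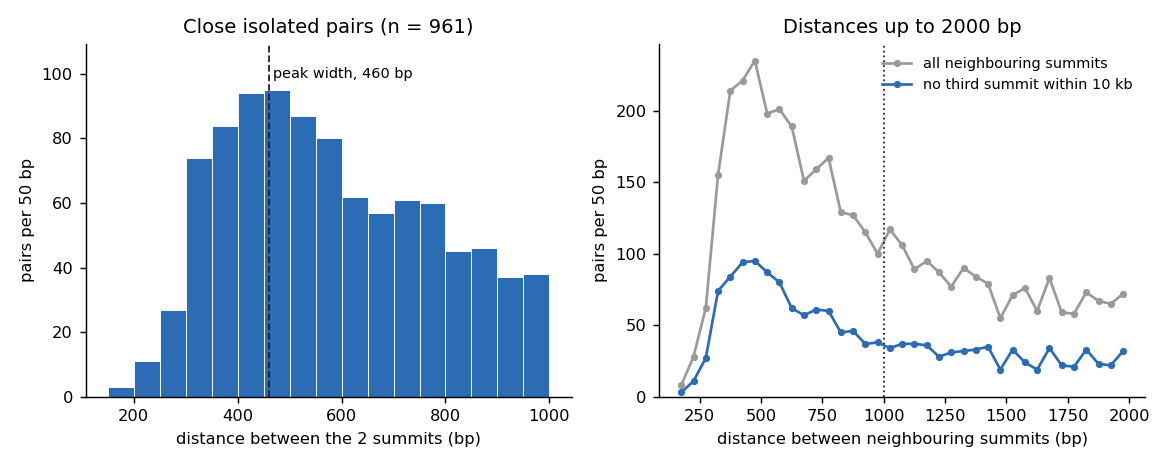
Left, the number of close isolated pairs per 50 bp of summit distance (x axis, bp), with a dashed line at the peak width of 460 bp. Right, the same count up to 2000 bp for isolated pairs and for all neighbouring summits, with a dotted line at the limit of 1000 bp; both curves peak near the peak width, and isolated pairs number 961 to the left of the line.

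The limit of 1000 bp did not fall at a break in the distances. The pair just inside it, on chromosome 15 from 90485866 to 90487324, had 999 bp between summits and signal values of 12.4 and 17.9. The isolated pair just outside, on chromosome 11 from 90419666 to 90421126, had 1001 bp and signal values of 12.5 and 12.01. The signal value is the strength that the authors gave to a peak, a score whose scale no source used here states. At the limit of 10 kb, the pair starting at 136303578 on chromosome 3 was kept with its nearest other summit at 10004 bp, and the pair starting at 86673215 on chromosome 5 was left out with one at 9988 bp. Its signal values were 12.1 and 102, against 15.1 and 21.5 in the pair that was kept. In all, 2459 pairs of neighbouring summits were less than 1000 bp apart, and the 961 isolated ones were 39.1% of them. The isolated share was 42.8% at 300 to 399 bp and 34.9% at 900 to 999 bp.

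The second question was how strong the members were. Their signal values ran from 11.32 to 240.2 with a median of 18.5 and with 25th and 75th percentiles of 13.995 and 29.3. All peaks on chromosomes 1 to 19 had a median of 17.9, and peaks with no other summit within 10 kb had 17.1 (13449 peaks). Isolated pairs with 1000 bp to 10 kb between summits had 18.2 (5218 peaks), and peaks in denser groups, with 3 or more summits chained by steps of up to 10 kb, had 18.8 (7774 peaks). Members thus lay close to the middle of the list, and by their median between wider pairs and denser groups. There were 175 members with a signal value of 50 or more (9.11%), beside 8.05% of all peaks on these chromosomes. The lowest q-value of the list, 0.00014, was given to 265 members (13.8%), beside 12.4% of all peaks. A signal value at or below 13.5, the 25th percentile of the list, was held by 21.3% of members, 22.2% of peaks in denser groups, 23.5% in wider pairs and 27.7% of single peaks. The share at 100 or more was 1.30% for members, 1.35% for single peaks, 1.49% for wider pairs and 1.81% for denser groups, so that the order of the classes depended on the measure.

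Within a pair, the signal values were mostly unequal. The stronger peak had a median of 25.9 and the weaker one a median of 14.7, which lies below the median of the list. Taking the stronger of any 2 values raises it, so that these medians describe the pair and not an excess of strength; the left peak, the one at the lower coordinate, had a median of 18.1. The list median of 17.9 was reached by 1025 of the 1922 members (53.3%). It was reached by both peaks in 274 pairs (28.5%), by 1 peak in 477 (49.6%) and by neither in 210 (21.9%). The lowest q-value, held by 13.8% of members, was given to both peaks in 20 pairs, to 1 peak in 225 and to neither in 716. Whether these splits differ from those of unrelated peaks with the same shares was not tested, so they are not read as a trait of the pairs.

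The strength ratio, the higher signal value divided by the lower, had a median of 1.55 and percentiles of 1.22 (25th), 2.32 (75th) and 3.48 (90th). It can be read as a fold only if the scale of the score has a true zero, which the sources used here do not give. As a rank within the list, which needs no scale, the 2 peaks of a pair differed by a median of 27.5 percentage points. In 126 pairs (13.1%) the ratio was under 1.1. It was at least 2 in 316 pairs (32.9%), at least 5 in 44 (4.58%) and at least 10 in 6. No listed peak had a signal value under 11.32, and so a ratio of 2 could be seen only where the stronger peak reached 22.6. That was so in 580 close pairs, of which 54.5% had a ratio of at least 2, while the other 381 could not show one.

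The ratio changed little with the distance between summits. Its median was 1.54 in overlapping pairs and 1.56 in tandem pairs, and over all 961 pairs Spearman's correlation of ratio and distance was 0.03. Isolated pairs farther apart than the limit had medians of 1.59 at 1 to 2 kb (585 pairs), 1.51 at 2 to 5 kb (961 pairs, by coincidence the same number as the members) and 1.56 at 5 to 10 kb (1063 pairs). The 41 pairs under 300 bp had a median ratio of 1.96, against 1.50 in the 277 pairs at 300 to 459 bp. This rested on 14 pairs under 230 bp, with a median of 2.23, while the other 27 had 1.53, within the range of the other classes. In those 41 pairs the weaker peak had a median of 12.7 and the stronger one of 29.8.

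**Figure D2:**
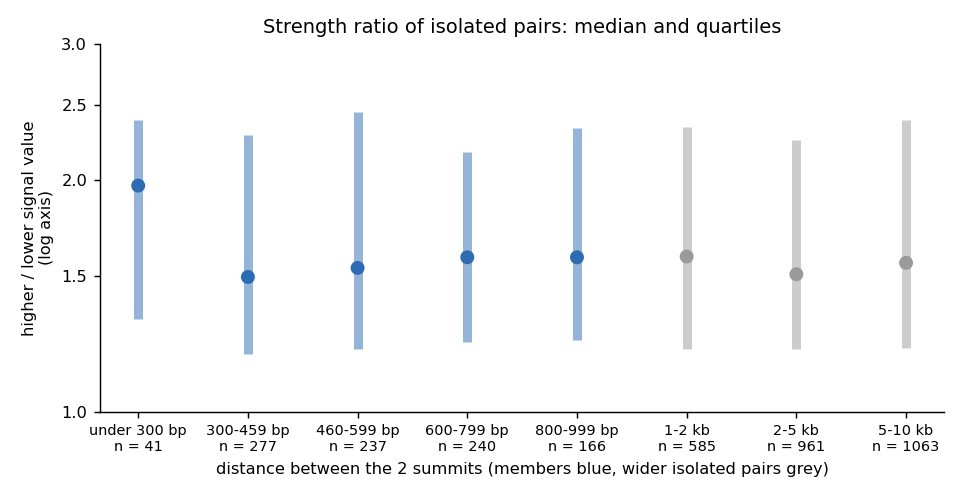
Median (points) and 25th to 75th percentiles (bars) of the ratio of higher to lower signal value, on a log axis, by distance between summits, for members (blue) and for wider isolated pairs (grey). The 41 members under 300 bp have a median of 1.96 (2.23 in the 14 under 230 bp and 1.53 in the other 27), and the 7 other classes lie between 1.50 and 1.59.

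Knowing the strength of one peak said little about its partner. Spearman's correlation of the left with the right signal value was 0.04 over the 961 pairs, 0.03 in overlapping and 0.04 in tandem pairs. It was 0.12 at 800 to 999 bp (166 pairs), the highest of the 5 distance classes of members. Wider isolated pairs gave -0.02, 0.05 and 0.00 in the same 3 distance classes as above. These are descriptions across sites, which share their libraries, their peak calling and the lower end of the list.

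The partners of strong members had signal values near the middle of the list. In 25 pairs a peak reached a signal value of 100, and their partners ran from 11.4 to 67.5 with a median of 19.1, beside 18.5 for all members. No partner reached 100, a level that 1.30% of members and 1.50% of all peaks reached, so that 25 partners are too few to read anything from this. The ratio in these pairs ran from 1.86 to 15.6. In the 135 pairs whose stronger peak lay between 50 and 100, the partner also had a median of 19.1, against 16.7 for stronger peaks between 30 and 50 and 15.3 between 20 and 30. Part of this rise is set by construction, since the weaker value cannot exceed the stronger. Overlap was about as frequent in pairs with a very strong peak, 8 of 25, as in all pairs.

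Both peaks reached a signal value of 50 in 15 pairs, which held 30 of the 175 members at that level (17.1%), while 9.11% of all members reached it. In wider isolated pairs, 8.75% of peaks at that level had such a partner (40 of 457), and 8.76% of all their peaks reached it. This contrast depended on the limit. With a limit of 40 the shares for members were 16.1% of strong peaks and 14.3% of all, with 30 they were 24.3% and 23.99%, and with 60 they were 5.50% and 5.67%, the last resting on 3 pairs. At a limit of 75, which 59 members reached (3.07%), no member had such a partner, and in wider isolated pairs 10 of 174 did (5.75%, beside 3.33% of all their peaks).

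The 10 pairs with the strongest weaker peak had a median ratio of 1.49, beside 1.55 over all pairs. Choosing pairs by a high weaker value limits the ratio they can show. For all pairs whose stronger peak lay between 50 and 100 the median ratio was 3.45, and at 100 or more it was 6.98. On chromosome 1, peaks starting at 45812737 and 45813600 had signal values of 73.3 and 78.5 at a distance of 863 bp, the highest weaker peak of all members. On chromosome 2, starts at 49307528 and 49308244 had 68.2 and 78.8 at 716 bp, and on chromosome 6, starts at 49046335 and 49047183 had 67.5 and 126 at 848 bp. Chromosome 10 held a pair at 41997389 and 41997867, with 59.8 and 88.5 and an edge-to-edge gap of 18 bp. Chromosome 8 held one at 26707358 and 26707903, with 59.3 and 89.6. These 5 pairs were tandem, and in each the right peak, at the higher coordinate, was the stronger.

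Of the remaining 5, those on chromosome 11 started at 56187096 (signal values of 58.6 and 93.9, 736 bp) and at 116295131 (53.5 and 66.1, 654 bp). The pair on chromosome 16 starting at 20097402 was the exception in order, with the left peak at 106 and the right one at 57.03. It stood far from other peaks, with 1203 kb to the summit before it and 165 kb to the one after it. The pairs on chromosome 19 at 45857773 (56.3 and 86.3) and on chromosome 3 at 126087411 (55.4 and 59.1) overlapped, by 110 and 8 bp. In all, 8 of the 10 were tandem, beside 66.9% of all pairs, too few to read a preference from. The ratios of the 10 ran from 1.07 to 1.86.

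The most unequal pairs held very strong peaks, with partners of 11.5 to 18.2. The choice by ratio sets this in part, since no listed value lay under 11.32 and a ratio this large needs a very strong peak. On chromosome 11 the peak from 85165941 to 85166400 had a signal value of 240.2, the highest of all members, and its partner, overlapping by 116 bp, had 15.4, a ratio of 15.6. On chromosome 16 the order was the other way round: the left peak, from 4879659 to 4880118, had 11.6 and the right one, from 4880441 to 4880900, had 179.8, also a ratio of 15.6. Chromosome 10 held 2 overlapping pairs of this kind, with 178 and 11.5 starting at 17954551 and with 207 and 14.7 starting at 25363203. The fifth, on chromosome 7 starting at 148042067, had 217 and 18.2 with a free stretch of 433 bp between the peaks. The weaker peaks of these 5 pairs had q-values between 0.000893 and 0.00842, and all 5 stronger ones had the lowest q-value.

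A further question was on which side the stronger peak lay. The list gives no strand, so left and right refer to the coordinate only. Over all pairs the left peak was the stronger in 472 of 961 (49.1%, exact binomial interval 45.9 to 52.3). In the closest pairs the sides were uneven. With less than 230 bp between summits, so that each summit lay inside the other peak, the left peak was the stronger in 13 of 14 pairs (92.9%, interval 66.1 to 99.8). Left signal values there ran from 11.3 to 60.8 with a median of 35.1, and right ones from 11.6 to 26.7 with a median of 12.1. The left peak was the stronger in 18 of 27 pairs with 230 to 299 bp (66.7%) and in 134 of 277 pairs with 300 to 459 bp (48.4%). In tandem pairs it was so in 307 of 643 (47.7%).

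The limit of 230 bp, which is the distance from a summit to the edge of its peak, was chosen after these values were seen. Pairs that the rule left out, because a further summit lay within 10 kb, showed the same order at that distance: the left peak was the stronger in 19 of 20 (95.0%, exact binomial interval 75.1 to 99.9). Their left values had a median of 30.4 and their right values one of 14.9. Beyond 230 bp the left peak was the stronger in 723 of 1478 of those pairs (48.9%). Both sets together had the left peak as the stronger in 32 of 34 pairs under 230 bp. The sources used here do not name the peak caller or say how it places neighbouring summits, and its part in this order was not tested, so that left and right here may not describe the binding itself. Without the 14 closest pairs, the median ratio of the members was 1.54, against 1.55 with them.

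The closest pair of all lay on chromosome 2, from 132439223 to 132439682 and from 132439418 to 132439877, with 195 bp between summits and signal values of 60.8 and 26.7. A second pair on chromosome 2, starting at 15827832, had 197 bp and signal values of 33.8 and 17.2. On chromosome 3 the pair starting at 38153693 had 199 bp and values of 39.8 and 16.1. Next came 3 pairs tied at 201 bp, on chromosome 5 at 135644548 (38.7 and 24.1), chromosome 10 at 43798820 (44.5 and 11.6) and chromosome 15 at 80932617 (37.5 and 11.6). All 6 had the stronger peak on the left. The exception among the 14 was a weak pair on chromosome 9 starting at 110379063, with values of 11.3 and 12.2 at 211 bp. The 14 pairs lay between 195 and 216 bp, and the next pair had 250 bp between summits.

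**Figure D3:**
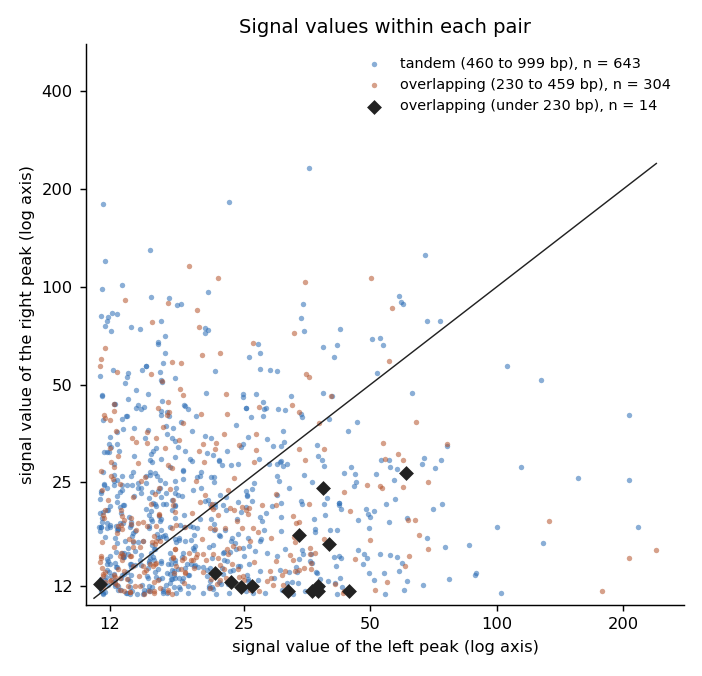
Signal value of the left peak (x axis) against that of the right peak (y axis), both on log axes, for 961 pairs; each point is a pair and the line marks equal values. Tandem and overlapping pairs scatter on both sides of the line, and 13 of the 14 pairs under 230 bp (diamonds) lie below it, with the left peak the stronger.

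**Figure D4:**
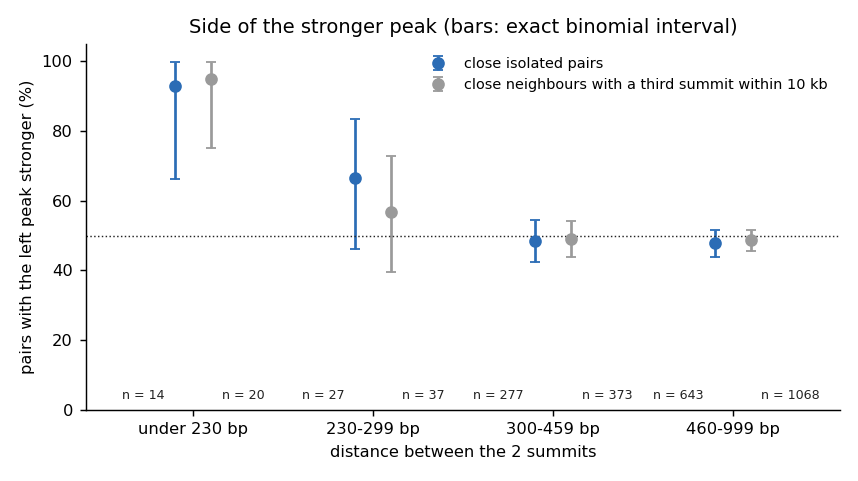
Share of pairs whose left peak is the stronger (y axis, %), with the exact 95% binomial interval, by distance between summits, for the members and for close neighbours with a further summit within 10 kb. Both sets stand above 90% under 230 bp and between 47% and 50% from 300 bp on.

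The last question was where on the chromosomes the pairs lay. Every autosome had some, with the fewest (23 and 29) on chromosomes 12 and 7 and the most (78 and 75) on chromosomes 10 and 11. Per Mb, with the highest peak end as the length of a chromosome, their number ran from 0.190 on chromosomes 7 and 12 to 0.865 on chromosome 19, against 0.389 over all 19. Chromosome 19 therefore carried a pair for every 1.16 Mb and chromosome 12 one for every 5.27 Mb. Pairs per Mb ran with peaks per Mb: Spearman's correlation of both was 0.89 over the 19 chromosomes, and each pair is itself a part of the peaks counted.

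As a share of the peaks of a chromosome, members varied less, by 1.68 times between the extremes against 4.56 times per Mb. The highest shares were on chromosome 9 (8.85%, 47 pairs), chromosome 14 (8.14%, 48 pairs) and chromosome 18 (7.94%, 44 pairs). The lowest were on chromosome 8 (5.27%, 39 pairs), chromosome 4 (5.46%, 36 pairs) and chromosome 1 (5.54%, 53 pairs). Only on 3 chromosomes, 9, 8 and 1, did the exact binomial interval, for counting error only, leave out the 6.78% of all 19 together. It included that value on chromosome 14 (6.64 to 9.85), chromosome 18 (6.42 to 9.69) and chromosome 4 (4.30 to 6.83). This interval counts each peak as a separate draw, while a pair always adds both of its peaks. It is therefore too narrow, and with 19 chromosomes looked at, it sets none of them apart. The sparse chromosomes 7 and 12, with 6.14% and 6.34%, lay near the overall 6.78%. Where peaks were dense, fewer close neighbours stood alone: 30.1% of those on chromosome 19 met the rule on isolation and 55.95% of those on chromosome 9, and over 19 chromosomes the correlation of this share with peaks per Mb was -0.73. The rule itself works in that direction, since a further summit within 10 kb is more likely among dense peaks.

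The make-up of the pairs also varied between chromosomes, on small numbers. Overlapping pairs were 10 of 53 on chromosome 19 (18.9%) and 15 of 62 on chromosome 15 (24.2%), and 12 of 29 on chromosome 7 (41.4%) and 18 of 42 on chromosome 13 (42.9%), beside 33.1% over all. The median distance ran from 502 bp on chromosome 2 to 612 bp on chromosome 14. The median ratio ran from 1.36 on chromosome 8 to 1.91 on chromosome 15. Pairs with a peak of signal value 50 or more numbered 17 on chromosome 11, 16 on chromosome 10 and 1 on chromosome 12.

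**Figure D5:**
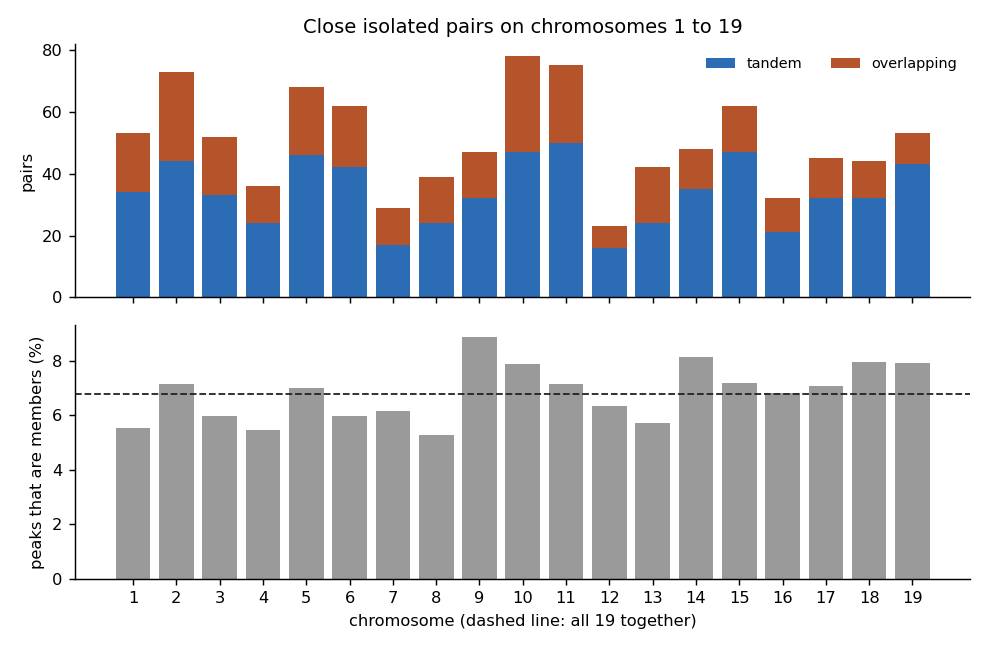
Top, number of pairs on each of chromosomes 1 to 19 (x axis), tandem below and overlapping above. Bottom, the share of each chromosome's peaks that are members (%), with a dashed line at the overall 6.78%; counts run from 23 to 78 and shares from 5.27% to 8.85%.

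The strongest pair of each chromosome, by the sum of both signal values, ranged from a sum of 98.9 on chromosome 9 to one of 268 on chromosome 10. The latter held peaks of 35.8 and 231.7, starting at 114687365 and 114688314, with 949 bp between summits. On chromosome 5 the pair starting at 138612026 had 207 and 25.5 and its nearest other summit at 10.03 kb, just beyond the limit. On chromosome 19 the pair starting at 6241298 had 23.03 and 183, and on chromosome 14 the one starting at 28636232 had 127 and 51.7. On chromosome 18 the pair starting at 69503857 had 129 and 16.2, and on chromosome 4 the one starting at 105313432 had 114 and 27.9. The ratios of these 6 pairs ran from 2.47 on chromosome 14 to 8.13 on chromosome 5, and all 6 were tandem.

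On chromosome 2 the strongest pair, starting at 125856795, overlapped by 73 bp and had 50.2 and 106.8. Those on chromosome 3 (starting at 108813541, with 21.7 and 106.7) and chromosome 12 (80572556, with 16.5 and 89.1) overlapped too, by 120 and 155 bp. Balanced values were found on chromosome 13, where the pair starting at 23654175 had 50.4 and 68.97. The pairs on chromosome 9 (34086902, with 71.3 and 27.7) and chromosome 17 (23003238, with 34.6 and 88.5) had ratios of 2.58 and 2.56. On chromosome 15 the pair starting at 87484417 had 15.004 and 92.9, with no other summit for 290 kb before it and 1085 kb after it. The remaining chromosomes 1, 6, 7, 8, 11 and 16 had as strongest pair one already described. Among the 19, 15 pairs were tandem and 4 overlapped, beside 66.9% tandem over all pairs, and the right peak was the stronger in 12.

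Pairs lay in many places along the chromosomes, and some lay close to each other. Whether they gathered more than an even spread would give was not tested. Of 2478 windows of 1 Mb on these chromosomes, 700 held at least 1 pair (28.2%). Of these, 511 held a single one, 136 held 2, 39 held 3, 10 held 4 and 4 held 5 or more. The fullest was chromosome 11 from 120000001 to 121000000, with 6 pairs among 37 peaks. Windows with 5 pairs started at 173000001 on chromosome 1 (19 peaks), 66000001 on chromosome 15 (44 peaks) and 29000001 on chromosome 19 (43 peaks). The distance from a pair to the next had a median of 1.20 Mb, and 45 of 942 such distances were under 50 kb. The longest stretches without a pair were 26.1 Mb on chromosome 4, between 6380339 and 32492181, 24.7 Mb on chromosome 7, between 27981308 and 52650634, and 24.5 Mb on chromosome 1, between 95722138 and 120265503.

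The surroundings of a pair held about as many peaks as those of single peaks and wider pairs, and fewer than those of denser groups. Within 500 kb on either side lay a median of 18 other peaks for members (25th and 75th percentiles 12 and 26). The median was 16 for single peaks, 19 for wider isolated pairs and 25 for peaks in denser groups (percentiles 18 and 32), which the definition of such groups favours. The nearest other summit was a median of 26.1 kb away, and 596 pairs (62.0%) had none within 20 kb. In 75 pairs the nearest one lay beyond 100 kb, and in 3 beyond 1 Mb. For 5 pairs no other peak was listed within 500 kb.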

How the data were processed

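Alignment was to mm9 with Bowtie, per the submitters' processing notes. For the version of Bowtie, the peak caller, its settings and any pooling of libraries, the sources used here give nothing. The authors deposited 1 narrowPeak table, named in its header as Foxk1 against input, with a signal value (a score of no stated scale) per peak. The deposited q-values are linear. Strand, name and p-value fields hold fillers.

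Summits were sorted on chromosomes 1 to 19, and pairs were kept with less than 1000 bp between summits and no further summit within 10 kb. Shares carry exact (Clopper-Pearson) 95% intervals, for counting error only, where given. Those for the share of a chromosome's peaks count both peaks of a pair separately, and are too narrow for that reason. The members, limits and classes were chosen with earlier results of these data known. Pairs named are the 10 with the strongest weaker peak, the 5 closest (a tie at 201 bp adds another), the 5 most unequal and the strongest by sum on each chromosome, beside the pairs at each limit. The 230 bp limit, the exception among the closest pairs and the limits on strong partners were added after values were seen. No group test was possible, since there is no value per library. The procedure recovered planted pairs when tested on simulated data. Alternatives were other distance, isolation, strength and overlap limits. The planned search for sequence motifs and genes was not run, as an mm9 genome was not used here. Python 3.11.15, numpy 2.4.6, scipy 1.17.1, pandas 2.3.3 and matplotlib 3.10.9 were used.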

Additional observations from a re-analysis of the deposited data

How the results depend on the processing

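The median strength ratio stayed within its 95% order-statistic interval (1.50 to 1.62) under all 8 alternatives run for it, between 1.50 and 1.58. Peaks from the median signal value up gave 1.5024 and those with a q-value of at most 0.001 gave 1.5025. Both lay barely above the lower end of the interval, 1.5023. The number of pairs, 961 as reported, was 388 with summits under 500 bp apart and 1546 with under 2000 bp. It was 596 with no further summit within 20 kb and 2459 with no rule on isolation. Paired anew, the stronger part of the list (from its median signal value up) gave 402 pairs and peaks with a q-value of at most 0.001 gave 419. The share of overlapping pairs, 33.1% as reported, was 81.96% under 500 bp and 20.6% under 2000 bp, 29.1% in the stronger part and 28.9% at the q-value limit. It was 13.8% when an overlap of at least 100 bp was asked for and 1.46% with 230 bp. The median distance, 552 bp as reported, was 397 bp under 500 bp and 782 bp under 2000 bp, both set by the limit. It was 577 bp without the rule on isolation, 588.5 bp in the stronger part and 586 bp at the q-value limit. An isolation of 5 kb raised the number of pairs from 961 to 1328, which is within the 1.5 times allowed here for a count. The addition of X with 22 pairs (Y had 0) gave 983. Neither change moved the share, the median distance or the median ratio past its interval. No paired analysis was possible because the list holds no value per replicate, and for that reason no replicate could be left out. With unknown depth, a missing partner means that none was listed at this threshold.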
